A study of Mus musculus with 28 samples.

Results

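Induced neural stem cells (miNSC) were made from embryonic fibroblasts of ICR mice, an outbred stock, with the factor cocktail BKF or KF, and their messenger RNA was compared. The 4 libraries were taken by their labels from the 28 of the series, 2 of the BKF line and 2 of the KF line. F is eSox17FNV, an engineered Sox17, and the labels give the other factors only as the letters B and K. In both groups the fibroblasts had been transduced with the M2rtTA transactivator and doxycycline-inducible lentiviruses, then kept in neural stem cell medium with bFGF and EGF at 10 ng/mL each. Doxycycline at 1 μg/mL was given for 18 days and colonies were picked at day 20. Passage numbers and the age or sex of the embryos were not given for these lines. Each cocktail is represented by 1 line, so an effect of B and a difference between lines cannot be told apart. The 2 libraries of a line are not described as separate cultures, so the spread between them may be technical. The p-values below rest on such spreads, pooled for each gene over the 14 groups of the series. Other groups of the series serve as a reference: 8 further miNSC groups of 2 libraries each, all of Sox2-GFP reporter mice, 6 libraries of adult Sox2-GFP fibroblasts, and a culture of neural stem cells (NSC), taken from 2.5-year mice of that reporter at passages 2 and 5. The 8 groups differ in donor age, tissue and cocktail, where KMF is K, M and eSox17FNV and 4F adds B to these. They are BKF, KF and KMF cells from embryonic fibroblasts, BKF and KMF cells from tail-tip fibroblasts of 1.0-year mice, a 4F line from the same source at passages 8 and 18, and 4F cells from ear fibroblasts of 1.0-year mice. The fibroblasts came from the tail tip at 1.0 and 2.5 years and from the skin at 2.5 years. The Sox2-GFP embryonic BKF and KF cells also form only 1 group of 2 libraries each. A difference between the stocks therefore cannot be told apart from a difference between single lines.

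Neural stem cells divide in FGF and EGF, express SoxB1 factors and radial glial genes, and carry patterning genes that record their place along the neural tube. Fibroblasts are mesenchymal cells that build collagen matrix and keep transcription factors such as Twist1 and Prrx1. Immediate early genes, of the Fos, Jun, Egr and Nr4a families, encode transcription factors whose messages rise within minutes of growth factor, calcium or cyclic AMP signalling and decay quickly.

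The values were normalised whole numbers whose totals were nearly equal, between 15565351 and 15568807 in the 4 ICR libraries, and the sequencing depth behind them is unknown. The values at each rank were the same in all 28 libraries to within 1.96%, for the 10918 ranks that reached 100, as quantile normalisation leaves them. A value thus stands for a gene's rank in its library, and a narrow pair means close ranks. The same value stood in both libraries for 11.8% of tested genes in BKF and 9.73% in KF. Of the neural stem cell markers, the factor gene Sox2 stood at 2734 and 2784 in BKF and at 2178 and 2624 in KF, against 2745 and 2304 in NSC. The intermediate filament gene Nes stood at 10893 and 10893 in BKF and at 7518 and 7289 in KF. Sox1, of the same list, was listed at 0 in both KF libraries and is described below. Fibroblast markers were uneven. Col1a2, which encodes fibrillar collagen I, was listed at 0 in all 4, and the fibroblast surface gene Thy1 did not exceed 3. The proteoglycan gene Lum, by contrast, stood at 119 and 88 in BKF and at 496 and 538 in KF (not called), where the lowest fibroblast library had 189. Neither line lacked Y-linked transcripts, since Ddx3y stood between 1960 and 2214, and none of 9 tested sex-linked genes differed. Replicates of BKF differed by a median of 0.08 and those of KF by 0.15 in absolute log2 value.

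Values were compared as log2(value + 1) with limma over 16275 genes, and a gene was called at an adjusted p (Benjamini-Hochberg over all tested genes) under 0.05. The fold changes are differences on that log2(value + 1) scale and understate the change of low genes. The SEs and p-values pool each gene's spread over the 14 groups. Among these is NSC, whose 2 passages were over 2-fold apart for 3141 tested genes, against 871 for BKF and 893 for KF. Of the tested genes, 2134 were called (13.1%), with 1089 higher in BKF (6.69%) and 1045 lower (6.42%). At least a 2-fold difference was seen for 1073 of them (6.59% of tested genes), 578 higher and 495 lower. The libraries of the lines did not overlap for any called gene, which was also true of 55.2% of all tested genes. The median over all tested genes was -0.02. With 1 ICR library left out at a time, 1307 to 1474 genes were called, and without either BKF library the count fell by more than 1.5 times (1351 without replicate 1, 1307 without replicate 2). For 138 named genes above 0 on both sides, a call lost in such a fit is given with the gene where it is described. For other called genes, among them Egr1, Egr3 and those at 0 on a side, no such result is given.

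**Figure D1:**
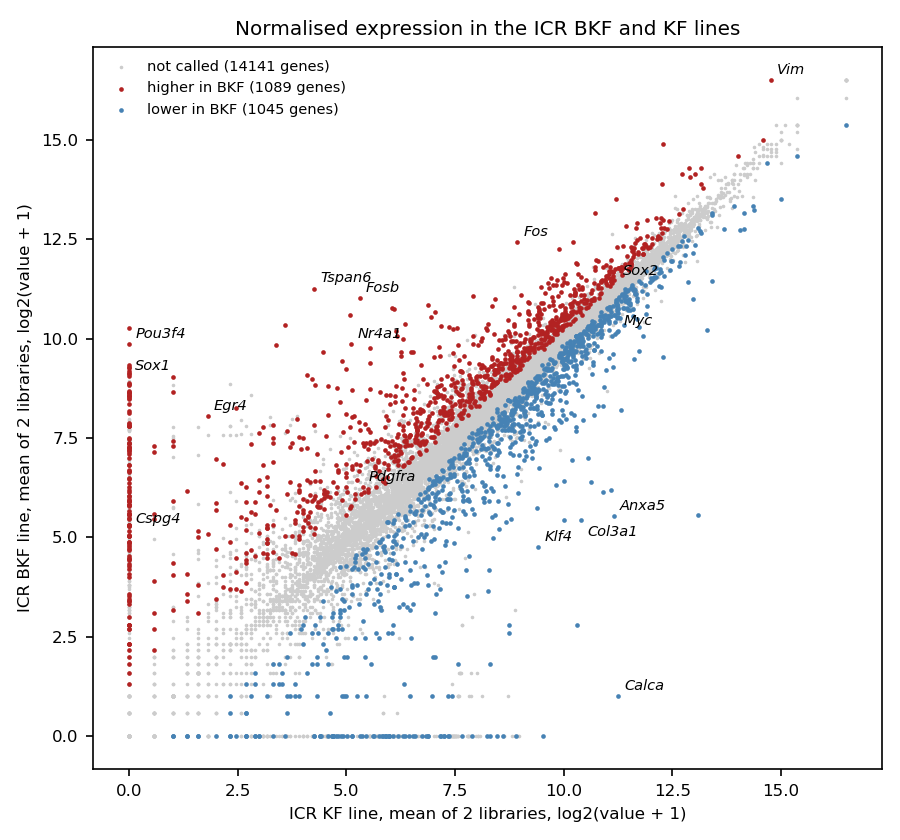
Mean of 2 libraries of the ICR KF line (x axis) against that of the ICR BKF line (y axis), both as log2(value + 1), 1 point a gene, with called genes in red (1089 higher in BKF) or blue (1045 lower). The points along the left and lower edges are genes listed at 0 in both libraries of a line, Pou3f4 and Sox1 among them, and Vim stands at the highest value of the table in BKF.

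Zeros in this table need care. In the BKF line 121 genes were listed at 0 in 1 library and at 100 or more in the other, and in the KF line 145, so a 0 can be a failed estimate. For 463 tested genes with a 0 somewhere in the series, the smallest value above 0 in any of the 28 libraries was itself 100 or more. Genes at 0 on a side are therefore given by their values in each library, without a fold. At 0 in both KF libraries and at 100 or more in both BKF libraries stood 53 genes, 44 of them called, and the reverse held for 25 genes, 14 of them called. Only 10 of the 53 and 2 of the 25 had a value between 1 and 20 in any library of the series.

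Among the genes of the reprogramming factors, Pou3f4 and Klf4 separated the lines in opposite directions. Pou3f4, which encodes the POU-domain factor Brn4, stood at 930 and 930 in BKF and was listed at 0 and 0 in KF (limma adjusted p = 7.72e-11). Its mean was 400 to 1416 in the other 8 miNSC groups, the Sox2-GFP KF line included (706 and 662), and it stood at 704 and 578 in NSC. The KF line of ICR thus was the only one of 10 miNSC groups in which Pou3f4 was not seen, and its smallest value above 0 in the series was 3. Klf4, a zinc finger factor of pluripotency and growth control, stood at 24 and 28 in BKF and at 708 and 662 in KF. The BKF values lay below the means of all 8 other miNSC groups, from 163 to 3382, and the difference was -4.67 ± 0.41 (SE, adjusted p = 7.25e-07). In the Sox2-GFP embryonic lines Klf4 was also lower in BKF, by -3.32, and the difference between the stocks was not called (adjusted p = 0.0885). Myc, a growth regulator, stood at 1220 and 1099 in BKF and at 2360 and 2504 in KF (-1.07 ± 0.30, adjusted p = 0.0248). That call was lost in all 4 fits that left out a library, with adjusted p up to 0.144. Sox2 and the POU factor gene Pou3f2 were not called, and Sox17 was listed at 0 in all 4 libraries. Reads of a transgene and of the endogenous gene are not separated in the table.

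Immediate early genes were, of the lists examined, the one with the most members higher in BKF. Of 17 tested members 8 were higher, against 6.69% of all tested genes, 0 were lower, and the median difference was 1.98 against -0.02 over all tested genes. The 8 were Egr4, Fosb, Nr4a1, Fos, Egr3, Junb, Egr1 and Jund. Promoters of 4 of them are printed so that the bases upstream of genes that moved together can be read. The windows hold the 250 bases before the RefSeq start on GRCm38.p6, 5′ to 3′ in the direction of transcription, with capitals marking TGACG or CGTCA, the half-site of the cyclic AMP response element on either strand.

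Egr4 (chr6:85513590-85513839, minus strand): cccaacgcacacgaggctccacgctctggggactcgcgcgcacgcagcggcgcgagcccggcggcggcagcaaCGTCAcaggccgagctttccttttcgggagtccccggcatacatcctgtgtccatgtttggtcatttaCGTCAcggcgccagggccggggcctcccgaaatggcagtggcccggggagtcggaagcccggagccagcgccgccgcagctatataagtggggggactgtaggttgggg
Fosb (chr7:19310046-19310295, minus strand): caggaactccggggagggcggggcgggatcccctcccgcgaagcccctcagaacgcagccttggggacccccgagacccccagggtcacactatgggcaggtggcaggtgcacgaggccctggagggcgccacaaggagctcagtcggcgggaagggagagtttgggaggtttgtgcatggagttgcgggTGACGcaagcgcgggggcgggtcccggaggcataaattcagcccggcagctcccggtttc
Nr4a1 (chr15:101266596-101266845, plus strand): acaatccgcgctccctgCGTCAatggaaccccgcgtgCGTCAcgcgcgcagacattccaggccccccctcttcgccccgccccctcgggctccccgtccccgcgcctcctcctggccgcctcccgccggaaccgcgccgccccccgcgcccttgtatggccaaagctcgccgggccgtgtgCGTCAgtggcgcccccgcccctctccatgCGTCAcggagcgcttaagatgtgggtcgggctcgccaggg
Fos (chr12:85473640-85473889, plus strand): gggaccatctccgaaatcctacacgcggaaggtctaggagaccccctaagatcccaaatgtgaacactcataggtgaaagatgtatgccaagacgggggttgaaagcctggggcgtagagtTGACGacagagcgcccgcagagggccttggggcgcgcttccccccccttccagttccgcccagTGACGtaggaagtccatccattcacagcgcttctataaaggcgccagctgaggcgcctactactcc

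A window was found for 6 of the 8 called genes, all but Egr1 and Egr3. None of the 6 held the full element TGACGTCA, present in 1.55% of all 32851 windows of this length, and none held the CArG box that serum response factor binds (1.47%). A half-site lay in 5 of the 6 (Egr4, Fosb, Nr4a1, Fos and Junb) and in 17.8% of all windows. It also lay in 3 of the 6 members with a window that were not called (Atf3, Egr2 and Nr4a2), so it was not limited to the genes that moved. Egr2 has several windows and was the 1 member, of 12 with a window, that held a CArG box. The half-site was searched after the longer motifs gave no match in the called genes, and the full element contains it on both strands. These are matches of letters within the windows and say nothing of binding or of sites farther upstream.

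Egr4, a zinc finger factor, stood at 266 and 264 in BKF and at 3 and 2 in KF. The difference was 6.26 ± 0.56 (adjusted p = 9.10e-07). Fosb, a partner of Jun proteins in AP-1, stood at 2078 and 2048 in BKF and at 45 and 32 in KF (5.73 ± 1.17, adjusted p = 0.00301). Both lines gave tight pairs, far apart from each other. The nuclear receptor gene Nr4a1 stood at 952 and 900 in BKF and at 35 and 32 in KF (4.75 ± 0.84, adjusted p = 9.04e-04). Fos itself stood at 5602 and 5430 in BKF and at 488 and 485 in KF (3.50 ± 0.53, adjusted p = 2.37e-04). Junb stood at 2150 and 2150 in BKF and at 208 and 270 in KF (3.18 ± 0.46). Every BKF library lay above every KF library for these genes, and no called gene had libraries that overlapped. Egr3 (492 and 358 against 47 and 44) and Egr1 (32713 and 28060 against 5242 and 4756) differed by 3.18 and 2.60. Jund, the least changed of the 8, stood at 3476 and 3578 in BKF and at 2191 and 2705 in KF (0.53 ± 0.11), and its call was lost without KF replicate 1 (adjusted p = 0.0588).

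The 9 members that were not called included Ier2 (2391 and 2659 in BKF, 464 and 463 in KF, adjusted p = 0.0904) and Egr2 (401 and 402 against 93 and 110, adjusted p = 0.0961). The summed level of the list was 54441 and 49818 in BKF and 11605 and 11853 in KF, and 23192 to 283199 in the other 8 miNSC groups. In NSC it was 28513 at passage 2 and 7685 at passage 5, below the KF line, and the fibroblast libraries had 16607 to 23437. For 7 of the 8 called genes both KF libraries lay below the lowest mean of the other 8 miNSC groups, while the BKF mean lay within the range of those means for all 8. Such means can hide a wide pair. For Nr4a1 the 2 libraries were equal in the Sox2-GFP KF line (28060 and 28060) and far apart in the 4F line at passage 8 (280 and 2304). In the Sox2-GFP embryonic lines the order of BKF and KF was the reverse for the 8 called genes. There 16 of 17 members were lower in BKF (18.5% of all tested genes were lower in that comparison), with a median of -3.35. Fos, for example, stood at 6986 and 6701 in the Sox2-GFP BKF line and at 42158 and 42158 in the Sox2-GFP KF line. The difference of the differences between the stocks was called for 15 of 17 members, against 32.1% of all tested genes.

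**Figure D2:**
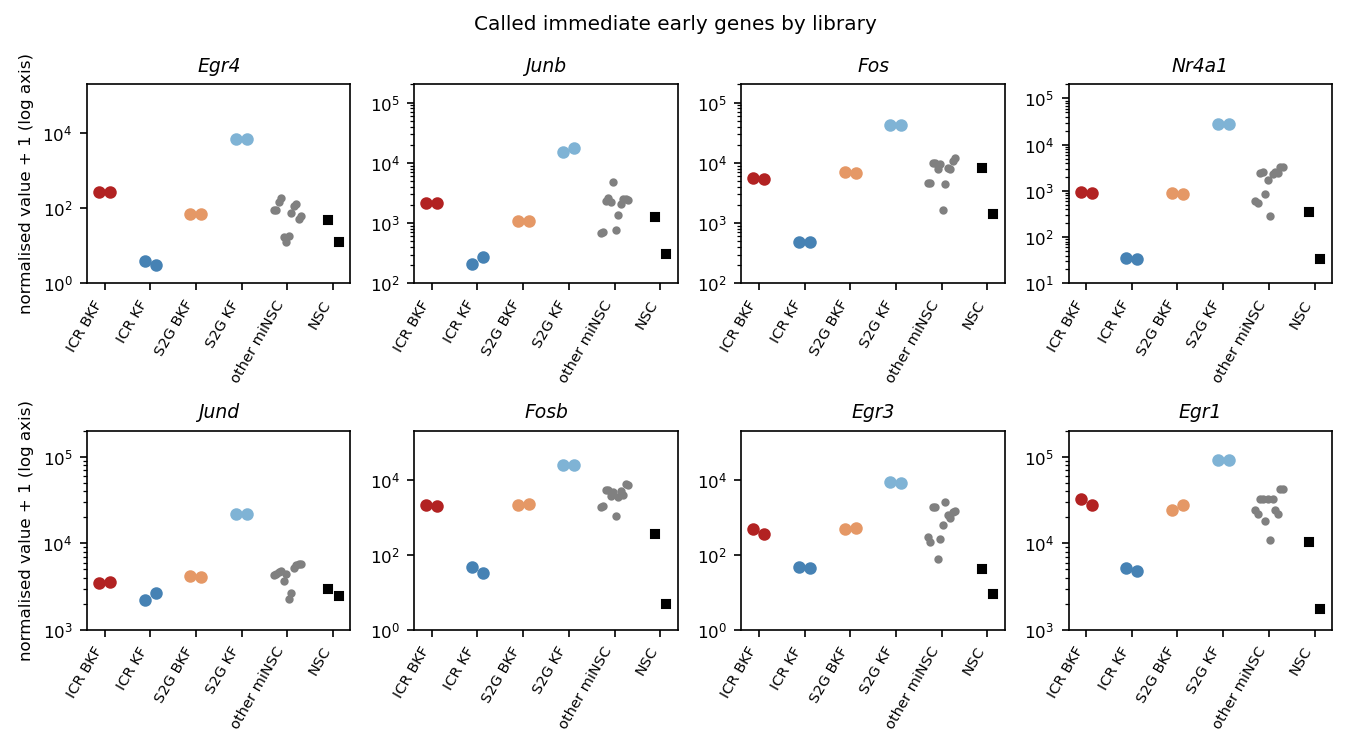
Normalised value plus 1 (log axis) of the 8 called immediate early genes in each library of the ICR and Sox2-GFP (S2G) embryonic BKF and KF lines, the 12 libraries of the 6 further miNSC groups (grey) and the NSC libraries at passages 2 and 5 (black, in that order). The ICR KF line is the lowest of the embryonic lines in each panel and the Sox2-GFP KF line the highest, with both BKF lines between them.

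Fibroblast genes were, of the lists examined, the one with the most members lower in BKF. Of 24 tested, 13 were lower, against 6.42% of all tested genes, 1 was higher and the median difference was -1.85. With 1 ICR library left out, 10 to 12 were called lower and none higher. Their summed level was 1823 and 1550 in BKF, 8343 and 7388 in KF, and 2586 to 5453 in the other miNSC groups. In NSC it was 4812 and 5431, and the fibroblast libraries had 575019 to 725530. On this sum the KF line lay above and the BKF line below every other miNSC group, and both far below fibroblasts. The sum rests on a few high genes such as Fn1, which encodes fibronectin (414 and 400 in BKF, 2416 and 1664 in KF, not called). Gene by gene, the KF mean was above the highest other miNSC group for 8 of the 13 lower genes and the BKF mean below the lowest for 3. In the Sox2-GFP embryonic lines 3 of the 24 were higher in BKF and 5 lower, with a median of 0. There 19.2% of all tested genes were higher and 18.5% lower. The difference of the differences was called for 13 of the 24, against 32.1% of all tested genes. Fewer cells of a type and less RNA per cell cannot be told apart in such bulk libraries, and whether fibroblasts remained in the KF culture was not tested.

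Col3a1, which encodes fibrillar collagen III, stood at 64 and 21 in BKF and at 1346 and 1352 in KF (-5.16 ± 0.94, adjusted p = 0.00118). No other miNSC group exceeded a mean of 124. Col6a3, of the microfibrillar collagen VI, stood at 1 and 1 in BKF and at 45 and 40 in KF (-4.44 ± 0.55). The mesenchymal homeobox gene Prrx1 stood at 161 and 151 in BKF and at 612 and 590 in KF (-1.94 ± 0.21, adjusted p = 8.62e-06). The KF values lay above the range of 55 to 279 in the other miNSC groups, but NSC had 507 and 894. Twist1, a driver of mesenchymal fate, stood at 218 and 212 in BKF and at 452 and 442 in KF (-1.05 ± 0.12). The Sox2-GFP embryonic KMF cells had 427 and 446 for Twist1, and NSC was listed at 0 and 0. The ICR pairs were narrow and well separated for both factors. The matricellular gene Postn was listed at 0 and 0 in BKF and stood at 304 and 296 in KF (adjusted p = 1.90e-04), with fibroblasts at 9148 to 92914. In 12 of the 13 genes the KF mean stayed below the lowest fibroblast library. The exception was Fap, a surface protease gene of activated fibroblasts, listed at 0 and 0 in BKF and at 226 and 250 in KF, with fibroblasts from 212. The 1 member higher in BKF was the receptor gene Pdgfra (82 and 70 against 38 and 43), also a gene of oligodendrocyte precursors, and its call was lost in all 4 fits without a library (adjusted p up to 0.151).

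Contractile genes ran the other way. Of 10 tested smooth muscle and myofibroblast genes 4 were higher in BKF, against 6.69% of all tested genes, and none lower, with a median of 1.40. In the Sox2-GFP embryonic lines 7 of the 10 were lower in BKF, against 18.5% of all tested genes, and none higher. The median there was -0.93, and the difference of the differences was called for 8 of the 10 (32.1% of all tested genes). In the lists that follow, the share of members called is given in brackets and stands against 13.1% of all tested genes. All lists, those above included, were chosen with earlier results of these data known. Such shares therefore describe the lists and are no test of them. Myl9, a myosin light chain of smooth muscle, stood at 323 and 288 in BKF and at 3 and 6 in KF (5.85 ± 0.59, adjusted p = 3.72e-06). Acta2, smooth muscle actin, stood at 661 and 674 in BKF and at 50 and 42 in KF (3.84 ± 0.53), where the other miNSC groups had means of 45.5 to 303 and fibroblasts 32713 to 42158. The BKF line was the highest of all miNSC groups for Acta2, and the KF line was the lowest for Myl9. The list's summed level was 3955 and 4068 in BKF and 3217 and 3109 in KF. Tagln (40 and 40 against 21 and 12) lost its call without KF replicate 2 (adjusted p = 0.103). Of 7 tested Schwann and neural crest genes 3 were lower in BKF and none higher (42.9%). They were Tfap2a (3 and 3 against 122 and 130, -4.99 ± 0.44), a neural crest factor, Cdh19 (931 and 946 against 1648 and 1683, -0.83 ± 0.05), a cadherin of glial precursors, and Twist1, also in the fibroblast list. In the Sox2-GFP embryonic lines 4 of the 7 were higher in BKF, against 19.2% of all tested genes, and none lower. The difference of the differences was called for 4 of the 7 (32.1% of all tested genes).

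**Figure D3:**
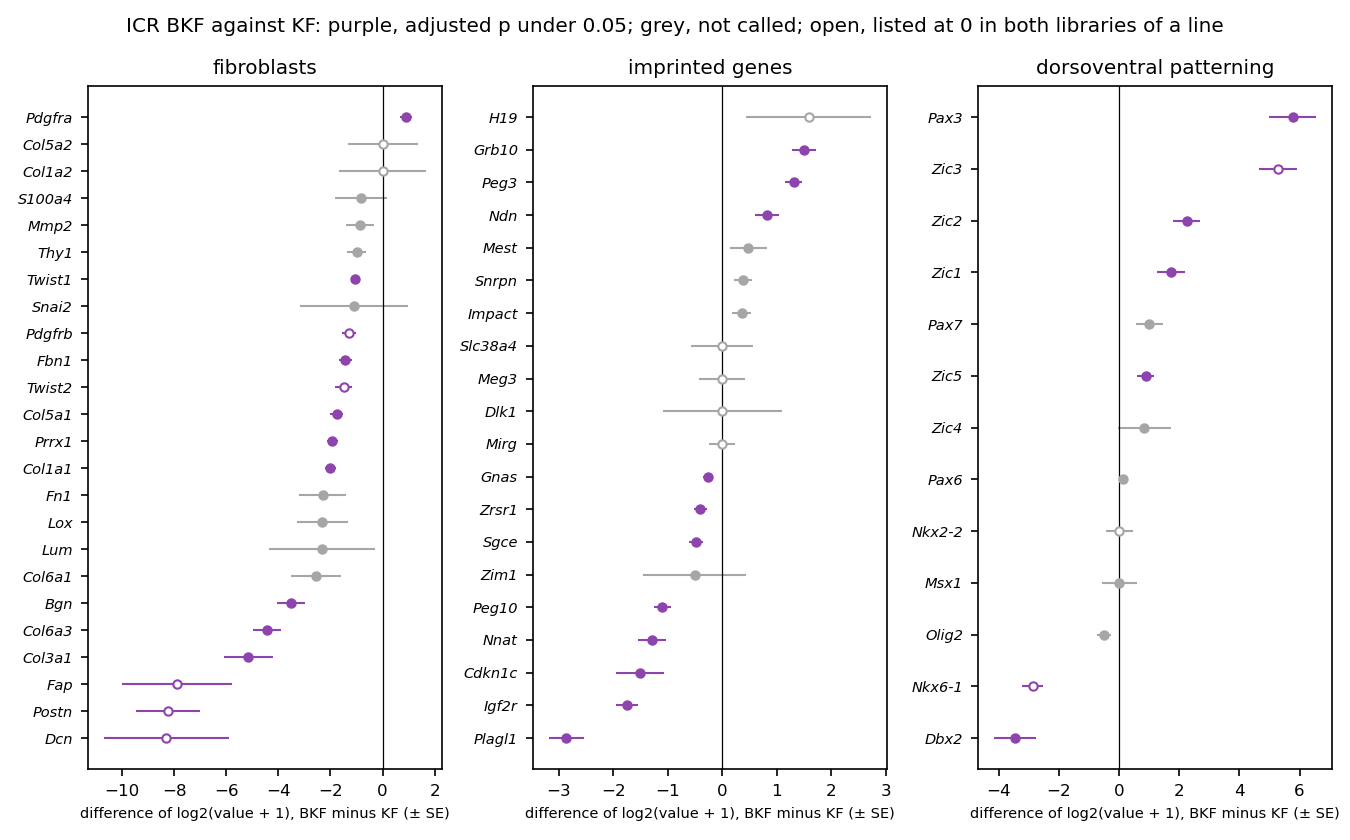
Difference of log2(value + 1), BKF minus KF, with its SE, for each tested member of the fibroblast, imprinted and dorsoventral patterning lists. Purple points were called, and open points mark genes listed at 0 in both libraries of a line, whose differences are no measure of a fold. Fibroblast genes lie to the left with Pdgfra as the exception, and imprinted genes spread to both sides.

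In the list of neural stem and progenitor genes 6 of 24 were higher in BKF and 1 was lower (29.2%), with a median of 0.17, and the counts were 4 and 1 with any ICR library left out. Sox1, a SoxB1 factor of early neural progenitors, stood at 554 and 506 in BKF and was listed at 0 and 0 in KF (adjusted p = 2.23e-10). Its means were 4 to 204 in the other 8 miNSC groups, and NSC had 1039 and 1148. The BKF line was thus the highest of the miNSC groups and the nearest to NSC for Sox1. Sox9, a factor of gliogenic progenitors, stood at 1418 and 1543 in BKF and at 996 and 823 in KF (0.71 ± 0.11). The RNA-binding progenitor gene Msi1 stood at 850 and 876 against 650 and 614 (0.45 ± 0.09). These were differences of less than 2-fold between narrow pairs. The intermediate filament gene Vim stood at 92914 in both BKF libraries, the highest value in the table, and at 28060 in both KF libraries (adjusted p = 0.00430). Since 10 genes share that highest value in each library, no fold is given for Vim. Gpm6a, a neuronal membrane glycoprotein gene, was the 1 lower member (9150 and 9150 against 10893 and 10893, -0.25 ± 0.04).

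Among 8 tested radial glia and ependyma genes 4 were higher in BKF and none lower (50%). Foxj1, the factor of motile cilia and ependymal fate, stood at 600 and 678 in BKF and at 110 and 100 in KF (2.59 ± 0.26, adjusted p = 2.77e-06). Pla2g7, a lipase gene of glial progenitors, stood at 1308 and 1336 against 80 and 82 (4.01 ± 0.61). The lines differed by more than any pair of libraries within them. Astrocyte genes were called in both directions, 4 of 16 higher and 3 lower (43.8%), with a median of 0.34. In the Sox2-GFP embryonic lines 1 of the 16 was higher in BKF and 12 were lower, with a median of -1.27. There 19.2% of all tested genes were higher and 18.5% lower. The difference of the differences was called for 11 of the 16, against 32.1% of all tested genes. Glul, glutamine synthetase, stood at 15161 and 15161 in BKF and at 5163 and 4756 in KF (1.61 ± 0.15), above the other miNSC groups, whose means reached 6585. Sparcl1, a secreted synaptogenic protein gene of astrocytes, stood at 286 and 298 against 2547 and 2585 (-3.13 ± 0.31). It was lower in BKF by -3.28 in the Sox2-GFP lines too, and the difference between the stocks was not called (adjusted p = 0.851). Gfap, the astrocyte filament gene, stood at 1572 and 1594 in BKF and at 553 and 608 in KF, and its call was lost in all 4 fits without a library (adjusted p up to 0.164).

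Of 14 tested neuronal genes 4 were higher and 2 lower (42.9%). The neuronal tubulin gene Tubb3 stood at 116 and 134 in BKF and at 51 and 44 in KF (1.38 ± 0.25). The proneural factor gene Neurod1 stood at 166 and 140 in BKF and at 428 and 439 in KF (-1.50 ± 0.25), where no other miNSC group exceeded 226.5. In the oligodendrocyte list 4 of 10 were higher and none lower (40%), falling to 2 with any library left out. Cspg4, the NG2 proteoglycan of oligodendrocyte precursors, stood at 44 and 64 in BKF and was listed at 0 and 0 in KF. The myelin enzyme gene Cnp stood at 984 and 1052 in BKF and at 576 and 526 in KF (0.89 ± 0.18).

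Patterning genes differed between the lines at both axes of the neural tube. Of 13 tested dorsoventral genes 5 were higher in BKF and 2 lower (53.8%), and the counts were 3 and 2 with any ICR library left out. Pax3, a factor of the dorsal neural tube, stood at 230 and 204 in BKF and at 0 and 15 in KF (5.77 ± 0.78, adjusted p = 7.55e-05). Zic2, another dorsal gene, stood at 174 and 164 against 38 and 32 (2.24 ± 0.45). Both were also higher in the BKF line of Sox2-GFP embryos, by 6.77 and 3.64, and the difference between the stocks was not called (adjusted p = 0.524 and 0.112). Dbx2, of the intermediate neural tube, stood at 12 and 10 in BKF and at 124 and 140 in KF (-3.47 ± 0.70). The dorsal gene Zic1 (1134 and 1093 against 346 and 332) lost its call in all 4 fits without a library (adjusted p up to 0.106).

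Along the other axis 2 of the 10 genes tested for midbrain and hindbrain rose in BKF and 2 fell (40%). En1, a marker of the midbrain and hindbrain boundary region, stood at 159 and 166 in BKF and at 662 and 634 in KF (-1.99 ± 0.29). No other miNSC group exceeded a mean of 144, so both ICR lines lay above them for En1. The homeobox gene Irx1 stood at 374 and 391 in BKF and at 92 and 71 in KF (2.23 ± 0.19), and its relative Irx5 at 512 and 485 against 256 and 250 (0.98 ± 0.17). Hox genes, which mark hindbrain and spinal levels, were called singly. Hoxd9 stood at 138 and 174 in BKF and at 1 and 0 in KF (6.79 ± 0.38), Hoxd8 at 404 and 336 against 120 and 148 (1.46 ± 0.29), and Hoxb3 at 473 and 605 against 184 and 268 (1.26 ± 0.22). Hoxb5 was low in both lines (5 and 5 against 12 and 12). No gene of Hox groups 10 to 13 was called, and of those in groups 5 to 9, 6 of 14 were listed at 0 in all 4 libraries.

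Signalling pathways differed in the share of members called, from 13.3% of Notch genes, about that of all tested genes, to 56.5% of Wnt genes. In the Wnt pathway 7 of 23 were higher and 6 lower. The ligand gene Wnt7a stood at 1232 and 1224 in BKF and at 176 and 199 in KF (2.71 ± 0.18, adjusted p = 3.58e-08), and Wnt5a, a ligand of planar polarity signalling, at 2167 and 2234 against 544 and 496 (2.08 ± 0.28). The receptor gene Fzd10 stood at 680 and 716 in BKF and at 236 and 148 in KF (1.89 ± 0.31). Both Wnt7a and Wnt5a exceeded in BKF the highest mean of the other miNSC groups, and so did Fzd10. Among the lower members, the receptor gene Fzd5 stood at 26 and 32 in BKF and at 193 and 121 in KF (-2.37 ± 0.28). The R-spondin receptor gene Lgr5 stood at 274 and 312 against 1026 and 980 (-1.77 ± 0.12), with no other miNSC group above 552. Fzd5 reached a mean of 237.5 in another group, so the KF line lay outside the range of the other groups for Lgr5 and within it for Fzd5.

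In the hedgehog pathway 4 of 11 were higher and 1 lower (45.5%). Evc, which acts at the base of the primary cilium, stood at 716 and 659 in BKF and at 30 and 28 in KF (4.52 ± 0.17, adjusted p = 1.01e-11), and its partner Evc2 at 408 and 392 against 156 and 108 (1.62 ± 0.28). The receptor and target gene Ptch1 stood at 2118 and 2106 in BKF and at 918 and 771 in KF (1.33 ± 0.21). The co-receptor gene Cdon went the other way (1010 and 1113 against 2418 and 2024, -1.06 ± 0.19), and the call of the effector gene Gli2 was lost in all 4 fits without a library (adjusted p up to 0.108). Of 15 Notch genes 2 were higher, the ligand gene Dll1 (2458 and 2716 against 1024 and 972, 1.37 ± 0.23) and the modifier Lfng (3888 and 4040 against 1757 and 1814, 1.15 ± 0.18). The TGF beta and BMP pathway had 1 higher and 5 lower of 27 (22.2%). Its target Id2, an inhibitor of differentiation factors, stood at 168 and 193 in BKF and at 751 and 883 in KF (-2.17 ± 0.20), and the ligand gene Bmp7 at 12 and 13 against 80 and 56 (-2.33 ± 0.35). Among 22 genes of growth factor receptors and their feedback 4 were higher and 5 lower (40.9%), with the MAP kinase phosphatase gene Dusp4 at 38 and 34 in BKF and at 420 and 306 in KF (-3.28 ± 0.35).

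Imprinted genes, expressed from 1 parental allele and often altered in cultured stem cells, were called in 11 of 20 cases, 3 higher and 8 lower in BKF, against 6.69% and 6.42% of all tested genes. With 1 library left out, 2 were called higher and 4 to 5 lower. Gnas, Zrsr1, Sgce, Cdkn1c, Ndn and Nnat lost their calls in at least 1 such fit (adjusted p up to 0.421). The zinc finger gene Plagl1 stood at 42 and 50 in BKF and at 402 and 285 in KF (-2.86 ± 0.33). Igf2r, the receptor that clears IGF2, stood at 592 and 594 against 2224 and 1792 (-1.75 ± 0.20), and the retroelement-derived gene Peg10 at 1792 and 1808 against 4356 and 3396 (-1.10 ± 0.16). The KF line was the highest of 10 miNSC groups for Plagl1 and Igf2r. Peg3, a zinc finger gene, stood at 3280 and 3047 in BKF and at 1494 and 1084 in KF (1.31 ± 0.15), and the adaptor gene Grb10 at 64 and 56 against 21 and 20 (adjusted p = 1.66e-04). Dlk1, Meg3 and Mirg, of a shared imprinted domain, were listed at 0 in all 4 libraries.

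**Figure D4:**
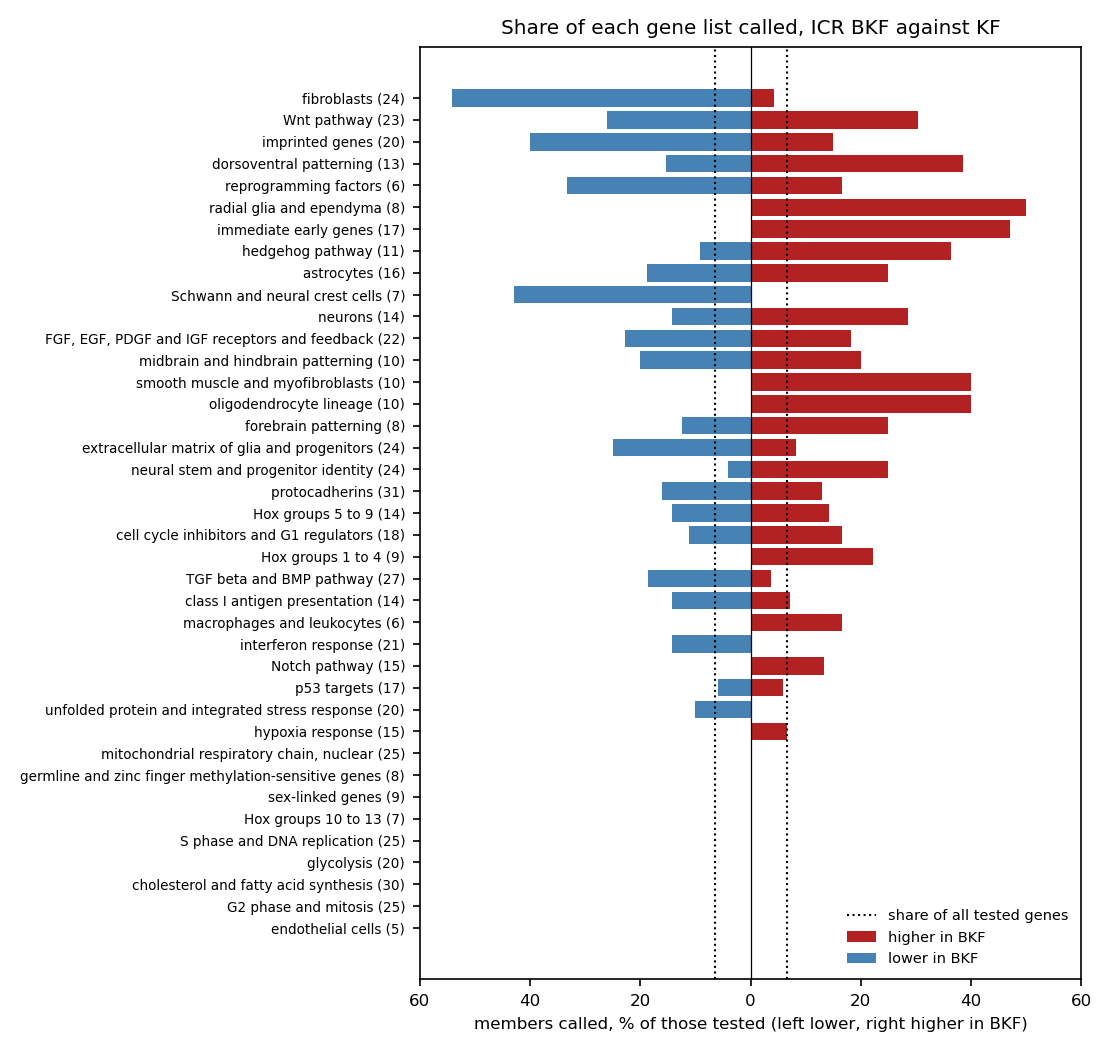
Share of the tested members of each list (number tested in brackets) called higher (right, red) or lower (left, blue) in BKF, in percent, with dotted lines at the shares of all tested genes (6.69% higher and 6.42% lower). Fibroblast genes have the longest bar to the left and radial glia and immediate early genes the longest to the right, and the S phase, mitosis, glycolysis and cholesterol lists are among those with no bar.

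Outside these lists, the largest differences were between values near the floor and far above it. Calca, which encodes calcitonin and the neuropeptide CGRP, stood at 0 and 2 in BKF and at 2264 and 2601 in KF (-10.45 ± 0.61, adjusted p = 5.48e-09). The membrane-binding annexin gene Anxa5 stood at 47 and 44 in BKF and at 2056 and 2488 in KF (-5.61 ± 0.14), and the chaperone partner gene Bag3 at 4 and 1 against 320 and 312 (-6.65 ± 0.44). The libraries did not overlap, as for every called gene, and for Anxa5 and Bag3 the BKF line lay below every other miNSC group. Higher in BKF were Tspan6, an X-linked tetraspanin gene (2433 and 2446 against 18 and 18, 7.01 ± 0.14, adjusted p = 2.73e-15), and the HMG-box gene Tox2 (939 and 883 against 9 and 10, 6.44 ± 0.42). The potassium channel gene Kcnt2 stood at 558 and 488 in BKF and at 1 and 1 in KF, and the same split was seen in the Sox2-GFP lines (475 and 388 against 1 and 1). Mndal, an interferon-inducible gene, stood at 432 and 368 in BKF and at 1 in both KF libraries and in all other miNSC groups, while NSC had 406 and 1264. Rps2, a ribosomal protein gene, was given at 36 and 56 in BKF and at 7992 and 9430 in KF. It has near-identical copies in the genome, so its value is uncertain. Other genes with large differences had a 0 in 1 library of a line (Lxn, Taf9b, Prex2, Fndc3c1, Pde7b, Zfp979, Herc6, Trim12c and Zfp984), and Prex2, Fndc3c1, Zfp979, Zfp984, Kcnb2 and Rab3c lost their calls when a library was left out (adjusted p up to 0.238).

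Genes listed at 0 in KF and expressed in BKF included several of the X chromosome. That chromosome held 3.55% of the tested genes and 10 of the 53 at 0 in KF (18.9%). Between the starts of Pou3f4 and Klhl4 (X, 110814280 to 114474333, GRCm38) 6 of 12 tested genes were at 0 in both KF libraries and at 100 or more in both BKF libraries. Over all tested genes this held for 53 of 16275. Both ends of the stretch are among the 6, so the share depends on where the ends were set. The 6 were Pou3f4, Tex16 (636 and 598 in BKF), 4933403O08Rik (172 and 166, not called), Zfp711 (1220 and 1218), Pof1b (526 and 580) and Klhl4 (584 and 542). The other 6 lay among them and were above 0 in KF, such as Chm, of vesicle traffic, at 2360 and 1893 and the kinase gene Rps6ka6 at 578 and 678. Zeros and expressed genes thus alternated along the stretch. Tex16, Klhl4 and 4933403O08Rik were at 0 in both Sox2-GFP KF libraries too, while Zfp711 stood there at 1033 and 1067. The smallest values above 0 in the series were 318 for Tex16, 480 for Zfp711, 341 for Pof1b and 320 for Klhl4, so no lower value above 0 was listed for them in any library. Fbln1, a matrix protein gene on another chromosome, stood at 652 and 570 in BKF and at 0 and 0 in KF, and had means of 604 or more in every other miNSC group.

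No member was called in the lists of S phase (25 genes), mitosis (25), glycolysis (20), cholesterol and fatty acid synthesis (30) and the nuclear-encoded respiratory chain (25). Their medians were -0.03, 0.07, -0.18, -0.34 and 0.01. In the cholesterol list 27 of 30 values were negative, none of them called. In the Sox2-GFP embryonic lines 25 of 25 S phase genes and 15 of 25 mitotic genes were higher in BKF, where 19.2% of all tested genes were higher, and the difference between the stocks was called for 18 and 0 of them.

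The comparison of the same cocktails in Sox2-GFP embryonic lines shared no library with that in ICR. There 6140 genes were called (37.7%). Of the 2134 genes called in ICR, 384 were called in the same direction in Sox2-GFP, 780 in the opposite direction and 970 were not called. The difference of the differences was called for 5229 of all tested genes (32.1%), 2565 with the ICR difference above the Sox2-GFP one (15.8%) and 2664 below (16.4%), and for 1552 of the 2134 (72.7%). Of those 1552, 1273 had opposite signs in the stocks. Across the 16275 genes the differences had a Pearson r of -0.05 and a Spearman rho of -0.14, a description over genes that share libraries. Genes that split alike in both stocks included Kcnt2, Pax3, Klf4 and Sparcl1, and Calca and the 8 immediate early genes called in ICR split in opposite directions. The immediate early gene Fosl2, not called in ICR, had lower values in BKF in both (48 and 50 against 122 and 88 in ICR, 84 and 94 against 2202 and 2106 in Sox2-GFP).

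**Figure D5:**
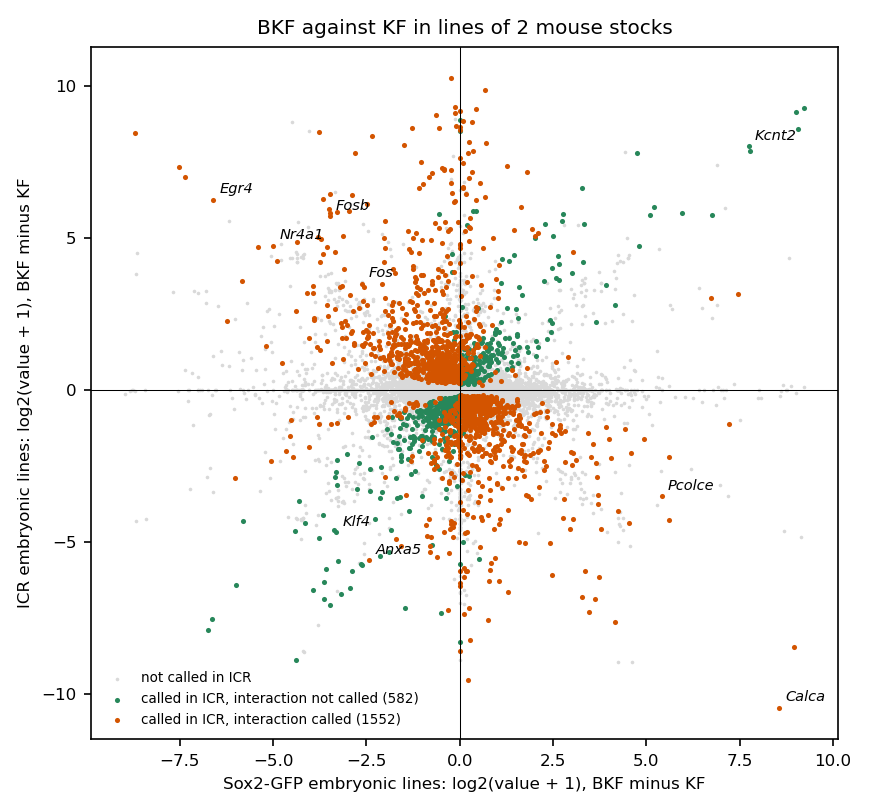
Difference of log2(value + 1), BKF minus KF, in the Sox2-GFP embryonic lines (x axis) and in the ICR embryonic lines (y axis), 1 point a gene. Of the genes called in ICR, the 1552 whose difference between stocks was also called (orange) lie mostly off the diagonal, with Egr4, Nr4a1 and Fos at the upper left and Calca at the lower right, and the other 582 (green) include Kcnt2 and Klf4.

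Which of the lines stood apart from other induced lines varied by gene. For 567 of the called genes (26.6%) only the BKF mean lay outside the range of the other 8 miNSC group means, for 605 (28.4%) only the KF mean, for 208 (9.75%) both and for 754 (35.3%) neither. Over all tested genes these shares were 12.1, 12, 12.9 and 63%. Each library was also placed on the line from the mean fibroblast profile (0) to the mean NSC profile (1). The BKF libraries stood at 0.870 and 0.860 and the KF libraries at 0.816 and 0.804, a difference of means of 0.0546 against a pooled SD of 0.00774. The pairs did not overlap, and with 2 libraries a side no permutation test could pass 0.05. The KF mean (0.810) was within that SD of the means of the embryonic KMF cells (0.812) and of the 4F line at passage 8 (0.813), and these 3 were the lowest of the 10 miNSC groups. BKF was the fifth highest, with the highest at 0.895.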

How the data were processed

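The authors deposited 1 table of 17295 genes in 28 libraries, in whole-number normalised values treated here as a score, since per the labels they are neither counts nor a named rate. Per the labels' protocols, RNA was extracted with Trizol, enriched with oligo(dT) and copied with random hexamers. RSEM, Bowtie2 2.0 and mm10 were named per the submitters' processing notes, without a role, and the normalisation is not given in the sources used here. All gene IDs were in GENCODE's GRCm38 annotation, the source of coordinates. Library totals were 15563679 to 15571626 in the series, 8.55 to 11.1% of the table's genes stood at 0, and depth, and the precision it gives, is unknown.

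Values were taken as log2(value + 1) for the 16275 genes with a mean of at least 10. One linear model with a term for each of 14 groups was fitted in R 4.3.3 by limma 3.58.1, using a variance trend, so the spread was shared over all groups. The contrasts were ICR BKF against KF, the same in the Sox2-GFP embryonic lines, and the difference between them. P-values were adjusted by Benjamini and Hochberg over all tested genes, threshold 0.05. The steps were tested on simulated data. Libraries with the same replicate number did not deviate together over all tested genes, so no block was used. Alternatives covered pseudocount, filter, scaling, variance prior, libraries in the fit and each library left out.

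The members and gene lists were chosen with earlier results of these data known. Named genes were the 15 largest rises and falls with no overlap, a mean of at least 100 on a side and a value above 0 on both (predicted and unnamed genes left out), up to 8 listed at 0 on a side, up to 6 of each list by adjusted p, all of the factor, Hox, sex-linked and imprinted lists, and the 8 largest interactions each way. Genes listed at 0 between Pou3f4 and Klhl4, members not called and list members beyond these were singled out after their values were seen. Some genes that meet the rule are not reported here. Promoter windows are from RefSeq (GRCm38.p6). Python 3.11.15 with pandas 2.3.3, numpy 2.4.6 and matplotlib 3.10.9 wrote summaries and figures.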

Additional observations from a re-analysis of the deposited data

Results flagged for a closer look

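The genes below gave a BKF minus KF difference in the ICR lines that differed from that in the Sox2-GFP embryonic lines (interaction term in limma, Benjamini-Hochberg adjusted p over all tested genes). All 8 immediate early genes called in ICR were called there in the opposite direction, and the adjusted p of the interaction was 9.90e-10 for Jund, 7.67e-09 for Egr4, 7.65e-07 for Junb, 1.33e-05 for Nr4a1, 1.42e-05 for Fos, 2.41e-05 for Egr3, 4.86e-04 for Fosb and 5.54e-04 for Egr1. The Sox2-GFP lines differed most for Egr4, with 70 and 70 in BKF and 6861 and 6988 in KF. The cause was not tested.

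Calca stood at 1168 and 972 in the Sox2-GFP BKF line and at 3 and 1 in its KF line, the reverse of the ICR lines (interaction adjusted p = 2.44e-10). Pcolce, an enhancer of procollagen processing, stood at 86 and 72 in ICR BKF and at 794 and 1010 in ICR KF, and in Sox2-GFP at 574 and 488 in BKF and at 11 and 12 in KF (4.55e-10). Fuca2, a fucosidase gene, was listed at 0 and 0 in ICR KF, at 216 and 224 in ICR BKF, at 44 and 44 in Sox2-GFP BKF and at 302 and 324 in Sox2-GFP KF (9.25e-17). Hexa, a lysosomal enzyme gene, was at 392 and 332 in ICR BKF, listed at 0 and 0 in ICR KF, and at 54 and 30 against 552 and 572 in Sox2-GFP (2.25e-10). Rtl8a was at 328 and 322 in ICR BKF, at 0 and 0 in ICR KF and at 124 and 150 against 753 and 659 in Sox2-GFP (3.37e-14). For these 3 genes the BKF line was the higher in ICR and the lower in Sox2-GFP. Ercc6l2, a DNA repair helicase gene, was listed at 0 and 0 in ICR BKF and stood at 763 and 720 in ICR KF, with no other miNSC group below a mean of 694 (4.92e-19).

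For the remaining genes the smallest value above 0 in any library of the series was 76 (Spef2) or more, so that they moved between 0 and such a step. Listed at 0 in both ICR KF libraries were Gm10118 (4.38e-04), Cxcr6 (7.32e-04), Spef2 (0.00101) and Zfp711 (0.00212). Listed at 0 in both ICR BKF libraries were Zfp982 (2.52e-05), Zfp985 (0.00148), Zfp987 (0.00530), Tspan8 (0.0119) and Slc25a21 (0.0175).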

How the results depend on the processing

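Of the 138 named genes called in ICR that were above 0 on both sides, none changed direction under any alternative, and 95 kept their call with each ICR library left out in turn. Of the 138, 94 kept it when only the 4 libraries compared were fitted and 8 with the replicate block on them. The fits without a library called 1307 to 1474 genes, 683 to 795 higher and 624 to 730 lower, with 833 to 886 at least 2-fold and 4310 to 4521 interactions. A lone library is assumed there to vary like the other groups. With a mean of at least 100 required, 701 genes were called at 2-fold or more, fewer genes being tested. Fitting only the 4 libraries compared called 1696 genes, 1148 of them shared with the 2134. Same-numbered libraries of BKF and KF did not deviate together over all tested genes (r = 0.02 in ICR and 0.00 in Sox2-GFP). A correlation over all genes cannot exclude a pairing that acts on some of them. With the replicate number as a block on those 4 libraries, 175 genes were called, 109 higher and 66 lower and all 175 at least 2-fold, fewer degrees of freedom being left. With the block on all numbered libraries 3031 were called, and without NSC and fibroblast libraries 2984. The numbered libraries do not include NSC, so an effect of the block is not separated there from that of leaving out NSC. Leaving out genes at 0 in any library compared, chosen after seeing the data, gave 1837 calls of 14508 tested. The difference in profile position was 0.0489 to 0.0531 with an NSC library left out. Sequencing depth is unknown, so limits from counting cannot be given, and genes at 0 or at the highest tied value have no reliable fold.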

Other observations

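Several groups not described above held single large differences. Against 13.1% of all tested genes, the share called was 21.4% for class I antigen presentation, 14.3% for the interferon response, 10% for the unfolded protein and stress response and 6.67% for hypoxia, so the last 3 lists lay near or below the background. Of 14 tested genes of class I antigen presentation 1 was higher in BKF and 2 lower. The class I gene H2-Q4 stood at 22 and 22 in BKF and at 222 and 230 in KF (-3.30 ± 0.30), with no other miNSC group above a mean of 64. Of 21 interferon response genes 3 were lower and none higher, with Ifi27 at 128 and 136 in BKF and at 445 and 670 in KF (-2.04 ± 0.29). Among 20 genes of the unfolded protein and stress response 2 were lower and none higher. The chaperone gene Hspa5 stood at 10338 and 10338 in BKF and at 20138 and 21805 in KF (-1.02 ± 0.14), and the stress factor gene Xbp1 at 394 and 374 against 855 and 843 (-1.14 ± 0.15). The KF line lay above all other miNSC groups for both. Hypoxia genes had 1 of 15 called, the peptide gene Adm (50 and 52 against 2 and 4, 3.75 ± 0.48).

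Of 18 cell cycle inhibitors and G1 regulators 3 were higher and 2 lower (27.8%). The growth arrest gene Gadd45a stood at 46 and 48 in BKF and at 224 and 265 in KF (-2.35 ± 0.26), and Cdkn2a, which encodes p16 and ARF, at 1787 and 1829 against 798 and 1126 (0.93 ± 0.17). Among 17 targets of p53 (11.8%), Plk2 was lower (2798 and 2716 against 7798 and 7153, -1.44 ± 0.21) and Pmaip1 higher, the latter losing its call in all 4 fits without a library (adjusted p up to 0.0955). Of 24 matrix genes of glia and progenitors 2 were higher and 6 lower (33.3%), with the proteoglycan gene Vcan at 2900 and 2705 in BKF and at 11648 and 10338 in KF (-1.97 ± 0.15) and the laminin gene Lama1 at 231 and 191 against 47 and 42 (2.22 ± 0.44). Of 31 protocadherins 4 were higher and 5 lower (29%), among them Pcdh19 (776 and 659 against 448 and 438, 0.69 ± 0.09) and Pcdhb5 (190 and 180 against 552 and 506, -1.51 ± 0.16). Of 6 macrophage and leukocyte genes 1 was higher and none lower, and of 5 endothelial, 2 epithelial and 8 germline and methylation-sensitive genes none was called. The 2 tested pluripotency genes included the orphan receptor gene Esrrb, lower in BKF (5 and 5 against 18 and 17, -1.62 ± 0.28). Forebrain genes had 2 of 8 higher and 1 lower, and Hox groups 1 to 4 had 2 of 9 higher.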
